A study of Mus musculus with 536 samples.

Results

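Ddb2, Xpc, Polk and Gadd45a are DNA repair and damage response genes known as transcriptional targets of p53 in mouse or human cells. They were taken by name from the array table, which covered 12393 genes, and all 4 were measured, each through the probe set that was brightest on average over all arrays. Blood from irradiated and unirradiated C57BL/6 mice had been put on Affymetrix Mouse 430A 2.0 arrays, and the values are log2 RMA signals of peripheral blood RNA from 534 mice in 109 groups. The labels gave no genotype change and no cross, so all groups shared the C57BL/6 background, and the mice were females and males aged 10 to 12 weeks. Irradiated mice received total body gamma rays from a caesium source, and all blood was drawn by terminal cardiac puncture and depleted of globin RNA.

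The arrays fell into 4 sets by their labels. The dose-time set had 48 groups of 5 mice (240 in all) without any agent: unirradiated, or given 1 of 7 doses (100, 200, 300, 450 and 600 cGy, and then 800 and 1050 cGy), with blood taken at 6, 24, 48, 72, 120 or 168 hr. The sex and treatment set comprised 226 mice, 111 female and 115 male, in 48 groups of 3 to 5, at 0, 200, 300 or 600 cGy, at 6 or 24 hr, with no agent, GCSF (granulocyte colony-stimulating factor) or LPS (lipopolysaccharide, a bacterial endotoxin). The small treatment set had 9 groups of 5 to 6 mice (50 in all), at 0, 150 or 600 cGy and 6 hr, with no agent, GCSF or LPS. The small 7 day set held 10 mice at 150 cGy and 168 hr and 3 mice at 0 cGy and 168 hr, beside 5 unirradiated mice at 6 and 24 hr. The labels gave sex in the sex and treatment set alone, and they did not say when the agents were given. Nothing says that mice of a group were independent litters or cages, so p-values measure the spread between these mice.

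Nucleotide excision repair removes bulky lesions from DNA: a damage sensor finds the distorted site, a helicase complex opens it, nucleases cut out the strand and the gap is filled. Ddb2 (damage-specific DNA binding protein) and Xpc (xeroderma pigmentosum group C) are sensors of this pathway. Polk is DNA polymerase kappa, a translesion polymerase that copies past damaged bases. Gadd45a is a small stress protein that binds PCNA and signals to the MAP kinase pathway, and it is a classic growth arrest gene. As background, human DDB2 is induced by p53 after damage, and mouse Ddb2 is known to lack much of that induction.

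RefSeq promoter windows matched 2 of the 4 members, Gadd45a and Polk, and the sequences just upstream of their start sites are shown for that reason. Each window holds the 250 bases before an annotated start on GRCm38.p6, read 5′ to 3′ on the gene's strand. Capitals mark matches to 4 motifs sought on both strands: the octamer ATTTGCAT, the CCAAT box CCAAT, the GC box GGGCGG, and the p53 response element decamer by its usual consensus.
Gadd45a, chr6:67037408-67037657, minus strand: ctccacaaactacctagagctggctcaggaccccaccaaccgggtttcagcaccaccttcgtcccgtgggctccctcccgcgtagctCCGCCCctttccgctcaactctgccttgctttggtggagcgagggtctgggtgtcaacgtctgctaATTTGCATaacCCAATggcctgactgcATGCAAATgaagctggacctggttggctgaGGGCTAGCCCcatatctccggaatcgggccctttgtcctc
Polk, upstream start, chr13:96542580-96542829, minus strand: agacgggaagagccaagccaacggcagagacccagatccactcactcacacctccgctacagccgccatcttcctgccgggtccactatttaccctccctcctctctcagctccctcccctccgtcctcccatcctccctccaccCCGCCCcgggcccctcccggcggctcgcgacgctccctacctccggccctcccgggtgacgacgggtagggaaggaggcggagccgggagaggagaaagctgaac
Polk, downstream start, chr13:96519188-96519437, minus strand: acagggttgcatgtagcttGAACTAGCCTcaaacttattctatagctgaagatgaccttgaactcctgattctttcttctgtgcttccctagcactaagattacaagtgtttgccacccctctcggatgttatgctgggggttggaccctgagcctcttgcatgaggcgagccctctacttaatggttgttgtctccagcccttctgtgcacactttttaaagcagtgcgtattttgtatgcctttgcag
The Gadd45a window held 2 octamers, with first bases at -97 and -70, a CCAAT box from -86, a GC box from -163 and a p53 decamer from -40 to -31. The upstream Polk window held a GC box from -105, and the downstream Polk window held a p53 decamer from -231 to -222. Among 32851 RefSeq windows of this length, 1.6% held the octamer, 33.8% the CCAAT box, 32.7% the GC box and 7.13% the p53 decamer. These matches are letters in a window and are not evidence of binding.

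Some arrays stood apart from the rest. Alb, the albumin gene of liver, read 10 or more (log2) in 116 of 240 dose-time mice: 1 mouse at 6 hr, 23 at 24 hr, 26 at 48 hr, 21 at 72 hr, 21 at 120 hr and 24 at 168 hr. At 120 and 168 hr these included all mice at 450 cGy and above, and at 24 hr all 5 mice at 300 cGy. The same held for 61 sex and treatment mice, 23 small treatment mice and 3 small 7 day mice. All 6 hepatocyte markers of a fixed list were measured. Cdkn1a, the cell cycle inhibitor most used as a p53 readout, also read against the label in 3 mice: 1 small treatment mouse labelled 0 cGy without agent (10.47, other mice of its group 7.03 to 7.47), 1 dose-time mouse at 600 cGy and 24 hr (7.24) and 1 at 1050 cGy and 24 hr (7.50). The B cell marker Cd79a was low in the small treatment mouse (7.23, against 10.82 to 11.74 in its group), so both genes read against that label. In the 24 hr mice, of Cdkn1a and Cd79a, Cdkn1a alone did. Their Cd79a was 8.72 at 600 cGy and 10.15 at 1050 cGy, below the 10.69 to 10.98 at 0 cGy. The Ddb2 of these mice, 5.75 and 6.01, also lay below the 6.82 to 7.43 at 0 cGy. Their Gadd45a, 10.12 and 9.9, lay inside the 9.27 to 10.38 at 0 cGy. The other mice of their groups had lower Gadd45a, 8.4 to 9.84 and 7.52 to 9.79. Polk of the 600 cGy mouse was 6.35, inside the 6.25 to 6.93 at 0 cGy and below the 7.24 to 7.79 of its group. Polk of the 1050 cGy mouse, 6.97, lay within the 6.84 to 7.57 of its group. The 800 cGy mice at 24 hr had an erythroid marker level of 12.35, near the 11.92 at 0 cGy. Sample titles carry a number in their middle whose meaning the labels do not give. Each of the 5 mice of a dose-time group had a different such title number, and each number was found in all 48 groups, so values are also given within it.

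**Figure D1:**
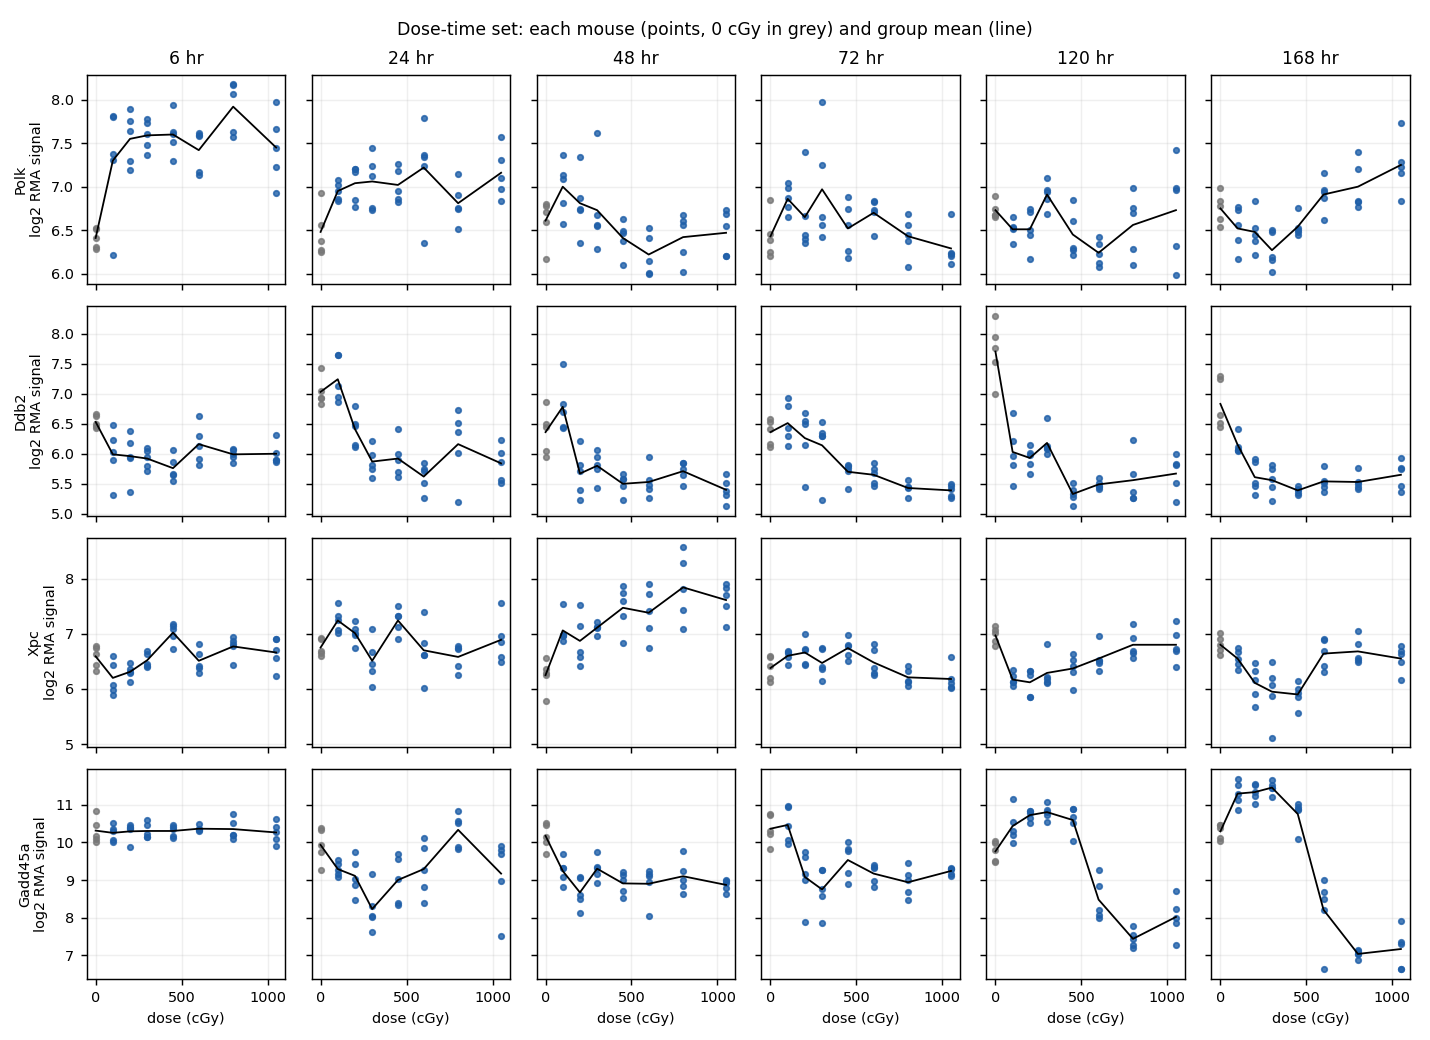
Log2 RMA signal of the 4 genes (rows) against dose in cGy at the 6 times (columns) of the dose-time set. Each point is 1 mouse, grey at 0 cGy, and the line joins group means of 5 mice. Polk is raised at 6 hr and Xpc at 48 hr, and Ddb2 of irradiated mice is furthest below the 0 cGy mice at 120 hr. The 168 hr mean of Gadd45a is 11.45 at 300 cGy and 7.04 at 800 cGy.

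In the dose-time set, the 4 genes did not move together. Polk was raised at 6 hr at every dose, by 0.90 to 1.52 on the log2 scale. Xpc was raised at 48 hr at every dose, by 0.62 to 1.59. Ddb2 fell in 36 of its 42 differences from 0 cGy and rose in none. Gadd45a showed no dose response at 6 hr, fell at 48 hr at every dose, and at 120 and 168 hr rose at low doses and fell at 600 cGy and above. Over the 48 group means of the set the Pearson correlations between members were 0.14 for Ddb2 with Polk, 0.13 for Ddb2 with Xpc, 0.25 for Ddb2 with Gadd45a, 0.03 for Polk with Xpc, 0.00 for Polk with Gadd45a and -0.42 for Xpc with Gadd45a. These points share arrays and controls, and the values describe likeness only.

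Each dose was compared with 0 cGy at the same time by limma, with Benjamini-Hochberg adjustment over all 12393 genes and a threshold of 0.05. Many genes of blood passed this test, which is the background for every count that follows. At 6 hr the share of all genes called was 30%, 44.7%, 47.9%, 37.5%, 49%, 35% and 51.7% at the 7 doses from 100 to 1050 cGy. At 24 hr it was 6.76%, 15.8%, 33.7%, 31.6%, 27.9%, 24.9% and 19.9%. At 48 hr it was 36.1%, 47.4%, 37.6%, 41.4%, 43.8%, 50.3% and 50.3%. In the same dose order, 13.8%, 39%, 44.6%, 47.1%, 56.9%, 54.3% and 50.4% were called at 72 hr. At 120 hr the shares were 71.3%, 67.1%, 43.5%, 40.9%, 46.2%, 54.7% and 50.1%. At 168 hr they were 15%, 58.8%, 72.7%, 68.2%, 42%, 53.6% and 60%. Against this background the members were called in 99 of 168 differences.

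A dose trend, the slope of the group means per 100 cGy, was called for 34.7% of genes at 6 hr, 38.7% at 24 hr, 47.3% at 48 hr, 53.4% at 72 hr, 82.4% at 120 hr and 82.2% at 168 hr. The members' trends were called in 17 of 24. A change of slope from that at 6 hr was called for 10.3% of genes at 24 hr, 42.9% at 48 hr, 52.6% at 72 hr, 78.8% at 120 hr and 78.7% at 168 hr, and for the members in 15 of 20. Slopes differed over the 6 times for all 4 members, and for 92.3% of all genes. The members' counts of calls were not tested against those of genes at large. They come from 4 genes on the same arrays with shared controls, and are no result about the members.

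**Figure D2:**
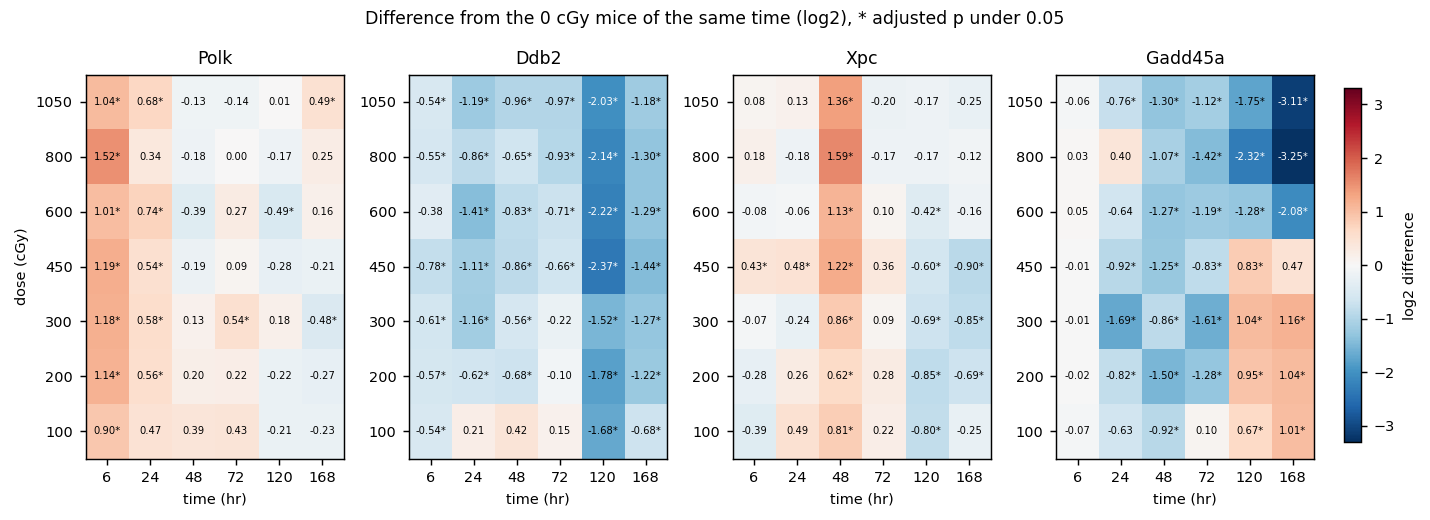
Log2 difference from the 0 cGy mice of the same time for each member, by time in hr (columns) and dose in cGy (rows), with 5 mice a group. Red is higher and blue lower than 0 cGy on a common scale, and an asterisk marks an adjusted p under 0.05. The column of Polk at 6 hr and that of Xpc at 48 hr are red throughout, while Ddb2 is blue throughout at 120 and 168 hr.

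Ddb2, the damage sensor that hands lesions to Xpc, was lower in irradiated blood at every time, at 4 to 7 of the 7 doses. At 6 hr the 0 cGy mice read 6.49, 6.46, 6.43, 6.63 and 6.66 (6.53 ± 0.10, SD, n = 5), and the 450 cGy mice read 6.07, 5.66, 5.87, 5.64 and 5.55 (5.76 ± 0.21). The groups did not overlap, and the difference was -0.78 ± 0.19 (SE, adjusted p = 0.000412). Ddb2 was called lower at 6 of the 7 doses at 6 hr, by 0.54 to 0.78 in size, and 600 cGy missed the threshold (-0.38 ± 0.19, adjusted p = 0.0825). The 6 hr response had no graded order, and its slope was -0.02 ± 0.01 per 100 cGy (adjusted p = 0.227). In bulk blood, fewer cells of a type and less RNA per cell cannot be told apart, here and in all later results.

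At 24 hr the 0 cGy mice had a Ddb2 signal of 7.03 ± 0.24 (7.05, 6.92, 6.93, 6.82 and 7.43). At 100 cGy the signal was 7.24 ± 0.38, a difference of 0.21 that missed the threshold, and at 600 cGy it was 5.62 ± 0.23 (5.52, 5.71, 5.85, 5.27 and 5.75). The fall at 600 cGy was 1.41 on the log2 scale (difference -1.41 ± 0.19, adjusted p = 3.91e-10), a 2.66-fold lower signal. Ddb2 was lower at 6 of 7 doses at 24 hr, and its trend was -0.12 ± 0.01 per 100 cGy (adjusted p = 2.88e-11). With the high Alb arrays left out, the falls at 200 cGy at 24 and 48 hr (-0.61 and -0.44) and at 600 cGy at 72 hr (-0.64) missed the threshold. At 48 hr Ddb2 was lower at 6 of 7 doses and at 72 hr at 4 of 7, those from 450 cGy up, with trends of -0.09 and -0.12. The 3 lower doses at 72 hr differed from 0 cGy by 0.15, -0.10 and -0.22, within the spread of the mice.

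The widest Ddb2 differences came at 120 hr. The 0 cGy mice read 7.76, 6.99, 8.30, 7.94 and 7.52 (7.70 ± 0.49), and the 450 cGy mice read 5.39, 5.33, 5.28, 5.52 and 5.13 (5.33 ± 0.14). The difference was -2.37 ± 0.19 (adjusted p = 1.18e-24), a 5.18-fold lower signal, and even 100 cGy lowered the signal to 6.03 ± 0.45 (-1.68 ± 0.19). Within each of the 5 title numbers the 450 cGy mouse was lower, with differences of -3.02 to -1.66. All irradiated groups at 120 hr lay wholly below the 0 cGy mice, and the same held at 168 hr. At 168 hr the 0 cGy mice read 6.83 ± 0.41 and the falls ran from 0.68 in size at 100 cGy to 1.44 at 450 cGy, all 7 called.

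Part of the 120 hr difference lay in the unirradiated mice, whose Ddb2 signal at 120 hr was 1.17 ± 0.19 above that at 6 hr (adjusted p = 4.76e-06, 39.9% of genes called). The 0 cGy level changed over the 6 times for Ddb2 (F test, adjusted p = 1.3e-09) and for Xpc (adjusted p = 0.00226), and 50.3% of all genes passed that test. Polk (adjusted p = 0.355) and Gadd45a (adjusted p = 0.215) did not pass it. Without the high Alb arrays the 120 hr level at 0 cGy also differed from that at 6 hr for Xpc (0.39, adjusted p = 0.0288) and Gadd45a (-0.55, adjusted p = 0.0191). Dose-time group means of Ddb2 at 450 cGy and above lay between 5.33 and 6.16 at all times. Where the high Alb arrays were left out, the Ddb2 trends at 120 and 168 hr, then over 0 to 300 cGy only, were -0.46 and -0.42 against -0.13 and -0.08 with all arrays.

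A second Ddb2 probe set followed the first over the 48 group means (r = 0.93, rho = 0.92). It showed a larger fall at 6 hr, by 0.70 to 1.21 in size at the 7 doses, and a called 6 hr trend of -0.07 ± 0.02 (adjusted p = 3.57e-05). At 0 cGy its level at 120 hr was 0.53 ± 0.21 above that at 6 hr (adjusted p = 0.0384), a smaller difference than the 1.17 of the first. Other Ddb2 results missed the threshold with it: the slope change at 24 hr (-0.04, adjusted p = 0.238), and in the sex and treatment set the 6 hr differences of slope for LPS (0.13, adjusted p = 0.0567) and sex (0.09, adjusted p = 0.0616) and the 24 hr GCSF difference at 0 cGy (-0.32, adjusted p = 0.39). The probe set used here carries the array maker's suffix for probes shared by more than 1 transcript, so its signal may hold related RNA.

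B and T cell marker levels were also lower in irradiated mice. At 6 hr the B cell markers (5 of 6 measured) went from 10.70 at 0 cGy (mice 10.30 to 10.89) to 6.56 at 1050 cGy (6.35 to 6.88), and the T cell markers (6 of 6) from 9.23 (9.10 to 9.66) to 7.33 (7.03 to 7.71). At 120 hr they went from 11.47 to 7.39 and from 9.99 to 7.93. Over the 48 group means Ddb2 correlated with the T cell level at r = 0.81 (rho = 0.74) and with the B cell level at r = 0.73 (rho = 0.62). The NK cell level was less like Ddb2, at r = 0.39 (rho = 0.31), as was the erythroid level at r = 0.39 (rho = 0.37). The tissue macrophage level ran the other way at r = -0.56 (rho = -0.67), and so did the hepatocyte level at r = -0.50 (rho = -0.59). The part of any of these cells in the Ddb2 result was not tested. The genes most like Ddb2 over these group means were Zfp62 (r = 0.93), Clk4 (0.92), Tlr1 (0.91), Zfp119a (0.91) and Sf3b1 (0.91).

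In the sex and treatment set, Ddb2 again fell with dose without agent. The share of genes called for the dose trend was 19.9% at 6 hr without agent, 52.6% with GCSF and 32.2% with LPS, and 41.2%, 30.6% and 13% at 24 hr. At 24 hr without agent, Ddb2 read 6.79 to 7.57 in 10 unirradiated mice (median 7.23) and 5.32 to 6.49 in 10 mice at 600 cGy (median 5.83). The groups did not overlap, and the difference was -1.38 ± 0.16 (adjusted p = 1.26e-13). The 200 and 300 cGy mice were lower by 0.88 and 0.89, and the trend was -0.22 ± 0.03 per 100 cGy. At 6 hr the trend was -0.08 ± 0.03 (adjusted p = 0.0123), with differences of -0.37 (missed), -0.38 and -0.54 at 200, 300 and 600 cGy. That trend missed the threshold with quantile normalisation (-0.07, adjusted p = 0.0946), in males alone (-0.02, adjusted p = 0.953) and in 1 or more fits that left out a mouse of every group (-0.07, adjusted p = 0.114). For these differences, 7.87%, 37.9% and 20.4% of genes were called at 6 hr without agent, and 20.3%, 39.7% and 41% at 24 hr.

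Ddb2 was lower with LPS in unirradiated mice, and its dose slope was not called under LPS. At 0 cGy and 24 hr the LPS mice read 5.72 to 6.78 (6.04 ± 0.31, n = 9) against 7.22 ± 0.27 without agent (n = 10), a difference of -1.19 ± 0.16 (adjusted p = 5.54e-10). At 6 hr the LPS mice read 5.83 ± 0.40 (n = 8) against 6.71 ± 0.63 (n = 10), a difference of -0.90 ± 0.17 (adjusted p = 1.23e-05), which was -0.36 and missed the threshold in males alone. The share of genes called for LPS at 0 cGy was 35.2% at 6 hr and 21.9% at 24 hr. These LPS mice at 0 cGy were already near the 600 cGy mice without agent, which read 6.17 ± 0.29 at 6 hr and 5.84 ± 0.35 at 24 hr. The part of this low starting level in the slopes with LPS was not tested. Under LPS the Ddb2 dose slope was 0.06 at 6 hr and 0.02 at 24 hr, and neither passed the test. The slope differed from that without agent by 0.15 ± 0.04 at 6 hr (adjusted p = 0.00597, 6.45% of genes called) and 0.24 ± 0.04 at 24 hr (adjusted p = 3.26e-07, 16.5% of genes called). LPS mice at 0 cGy also had lower T and B cell markers at 6 hr. The T cell levels were 7.18 against 8.94 and the B cell levels 8.04 against 10.27. The part of these cells in the LPS result was not tested.

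With GCSF, Ddb2 fell with dose at both times. Its dose slope under GCSF was -0.10 ± 0.03 at 6 hr (adjusted p = 0.000771) and -0.08 ± 0.03 at 24 hr (adjusted p = 0.00913). Neither slope passed the test of difference from no agent, for which 0.0161% of genes were called at 6 hr and 0.00807% at 24 hr. At 0 cGy and 24 hr GCSF mice read 6.55 ± 0.37 against 7.22 ± 0.27, a difference of -0.67 ± 0.16 (adjusted p = 0.023, 0.549% of genes called). Leaving out high Alb arrays made that difference -0.71 ± 0.26 and missed the threshold (adjusted p = 0.762), and the 24 hr slope under GCSF (adjusted p = 0.212) and the 600 cGy difference with it (-0.40, adjusted p = 0.248) missed it too. The GCSF difference also missed it with quantile normalisation (-0.58) and in females (-0.49) or males (-0.85) alone. At 6 hr and 0 cGy the GCSF test called 0% of genes and no member.

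Sex entered the 6 hr values of Ddb2. Unirradiated males without agent read 6.23, 6.30, 5.89, 6.79 and 5.94 (6.23 ± 0.36), and females read 7.40, 7.43, 7.45, 7.25 and 6.45 (7.20 ± 0.43). The males were lower by 0.97 (male minus female -0.97 ± 0.23, adjusted p = 0.00107, 27.8% of genes called), with 1 female inside the male range. The slope with dose was less negative in males by 0.12 ± 0.03 per 100 cGy (adjusted p = 0.00175, 22.2% of genes called), averaged over agents. At 600 cGy without agent the sexes read 6.10 ± 0.17 and 6.24 ± 0.39. At 24 hr neither sex contrast was called for any member, where 0.0726% and 0.0161% of genes passed.

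The 2 small sets gave a short and a long view of Ddb2. At 6 hr in the small treatment set the 6 dose differences of Ddb2 lay between -0.54 and 0.01, and none passed the test. The background shares there were 3.83% and 7.38% of genes at 150 and 600 cGy without agent, 1.77% and 25% with GCSF, and 3.58% and 16% with LPS. The difference of -0.54 ± 0.22 at 600 cGy with GCSF had an adjusted p of 0.0643, and 0.0497 without the mouse that read against its label. Ddb2 was again lower with LPS alone: the 6 LPS mice at 0 cGy read 5.68, 6.13, 5.88, 5.86, 5.97 and 5.64 (5.86 ± 0.18) against 6.81 ± 0.55 without agent (6.08 to 7.39), a difference of -0.95 ± 0.21 (adjusted p = 0.00039, 26.2% of genes called). GCSF alone called 0.549% of genes and no member.

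At 168 hr after 150 cGy in the small 7 day set, Ddb2 read 6.16 to 6.97 in 10 mice (median 6.48) and 8.71, 8.13 and 8.36 in 3 unirradiated mice. The groups were far apart, and the difference was -1.90 ± 0.20 (adjusted p = 2.08e-06), a 3.73-fold lower signal. In that comparison 67.1% of genes were called and 3 of the 4 members. B cell markers were 9.23 against 11.42 and T cell markers 8.78 against 10.37 in the same mice, and their part in the result was not tested.

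**Figure D3:**
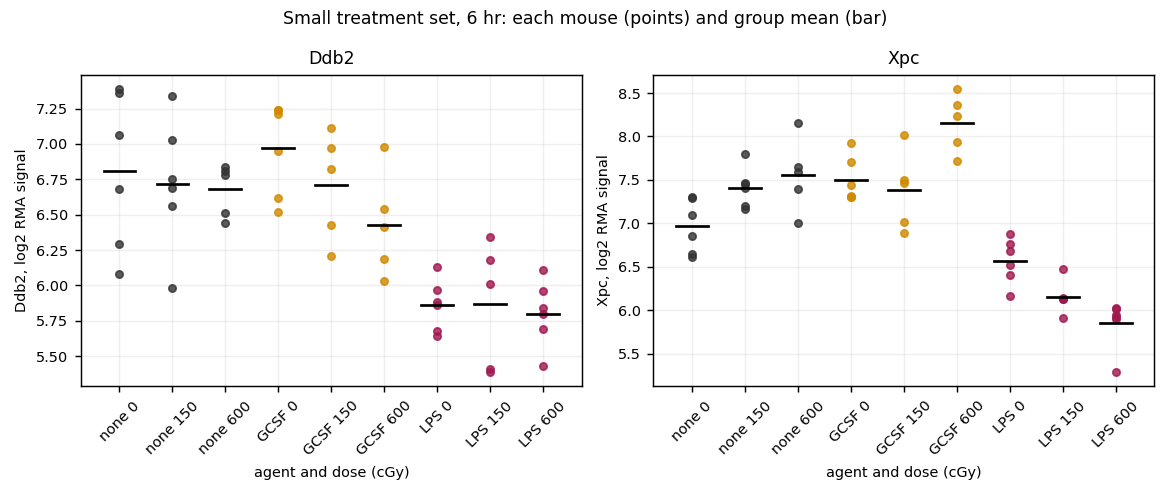
Log2 RMA signal of Ddb2 (left) and Xpc (right) at 6 hr in the small treatment set, by agent and dose in cGy. Points are mice, 5 to 6 a group, and bars are group means. Ddb2 is low in all LPS groups (means 5.80 to 5.87), and Xpc under LPS falls with dose from 6.57 to 5.85 while under GCSF it is 8.16 at 600 cGy.

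Xpc, the sensor that binds distorted DNA and recruits the opening complex, changed most at 48 hr. The 0 cGy mice read 6.56, 6.28, 6.37, 6.26 and 5.78 (6.25 ± 0.29), and the 800 cGy mice read 8.57, 8.29, 7.81, 7.43 and 7.09 (7.84 ± 0.61). The groups did not overlap, and the difference was 1.59 ± 0.18 (adjusted p = 9.01e-15), a 3.01-fold higher signal. Within each of the 5 title numbers the 800 cGy mouse was higher, by 1.16 to 2.02. Xpc rose at all 7 doses at 48 hr, by 0.81, 0.62, 0.86, 1.22, 1.13, 1.59 and 1.36 in order of dose. At 200 cGy 1 or more mice overlapped the 0 cGy range, and at the other 6 doses none did. The trend was 0.12 ± 0.01 per 100 cGy (adjusted p = 6.57e-15), and it exceeded the slope at 6 hr by 0.08 ± 0.02 (adjusted p = 0.0001).

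Few Xpc differences passed at the neighbouring times. With all arrays Xpc passed the 6 hr test at 450 cGy alone (0.43 ± 0.18, adjusted p = 0.0473), with a slope of 0.03 ± 0.01 (adjusted p = 0.0331). At 24 hr it also passed at 450 cGy alone (0.48 ± 0.18, adjusted p = 0.0266), and at 72 hr at no dose, where the slope was -0.03 ± 0.01 (adjusted p = 0.0192). Leaving out high Alb arrays, the 72 hr slope was -0.02 and the 24 hr difference 0.74, and both missed the threshold, while the differences at 100 cGy and 6 hr (-0.39 ± 0.15, adjusted p = 0.0324) and at 450 cGy and 72 hr (0.46 ± 0.19, adjusted p = 0.0426) passed it. At 48 hr without those arrays the differences at 450, 600, 800 and 1050 cGy were 1.31, 1.09, 2.01 and 1.30 and passed, while those at 100, 200 and 300 cGy were 0.49, 0.72 and 0.61 and missed.

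At 48 hr other markers differed as well. The neutrophil markers (5 of 6 measured) read 9.39 at 0 cGy (mice 8.69 to 9.91) and 11.06 at 800 cGy (9.99 to 12.11). The tissue macrophage markers (6 of 6) read 7.77 (7.02 to 9.32) and 10.03 (8.12 to 11.34), and the erythroid markers (5 of 6) fell from 12.12 at 0 cGy to 8.20 at 1050 cGy. Hepatocyte markers read 8.55 (5.66 to 11.40) at 0 cGy and 9.96 (6.37 to 12.45) at 800 cGy. The part of these cells in the Xpc rise was not tested. Over the 48 group means, the marker list most like Xpc by Pearson r was that of NK cells (r = 0.45, rho = 0.46), and by rho that of neutrophils (r = 0.39, rho = 0.51). The most alike genes were Rgs2 (r = 0.88), Rell1 (0.87), Cep19 (0.87), Irf9 (0.86), the interferon response factor, and Ccpg1 (0.86).

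At 120 and 168 hr Xpc was lower at the low and middle doses and near the 0 cGy level at the highest. At 120 hr the 0 cGy mice read 7.02, 6.78, 7.14, 6.87 and 7.06 (6.97 ± 0.15) and the 200 cGy mice 6.32, 5.86, 6.25, 5.85 and 6.32 (6.12 ± 0.25), a fall of 0.85 (difference -0.85 ± 0.18, adjusted p = 1.99e-05). The differences at 100 to 600 cGy all passed, from -0.85 to -0.42, and those at 800 and 1050 cGy were -0.17 each and missed. At 168 hr Xpc fell at 200, 300 and 450 cGy, by 0.69, 0.85 and 0.90, and at 600 cGy and above the differences were -0.16, -0.12 and -0.25. The resulting slopes were 0.04 ± 0.01 (adjusted p = 0.0106) and 0.01 ± 0.01 (adjusted p = 0.304), and without arrays with high Alb, over 0 to 300 cGy, they were -0.20 and -0.34. All mice at 450 cGy and above at these times carried high Alb, with hepatocyte levels of 10.23 at 450 cGy and 13.67 at 800 cGy at 120 hr against 5.57 at 0 cGy, and the part of this in the Xpc values was not tested.

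At 6 hr, Xpc at 600 cGy was higher without agent and with GCSF and lower with LPS in the small treatment set. Without agent, the 600 cGy mice read 7.65, 7.59, 7.39, 7.00 and 8.15 (7.56 ± 0.42) against 6.97 ± 0.31 at 0 cGy, a rise of 0.59 ± 0.18 (adjusted p = 0.0376). With GCSF it read 7.94, 7.72, 8.24, 8.55 and 8.36 (8.16 ± 0.33) against 7.50 ± 0.26, a rise of 0.66 ± 0.18 (adjusted p = 0.00523). With LPS it read 5.92, 6.03, 5.90, 5.29, 5.94 and 6.01 (5.85 ± 0.28) against 6.57 ± 0.26, a fall of 0.72 (difference -0.72 ± 0.17, adjusted p = 0.00289). The 600 cGy effect under LPS differed from that without agent by -1.31 ± 0.25 (adjusted p = 0.00227), where 3.15% of genes were called, against 0.0323% for GCSF. The rises at 600 cGy, with high Alb arrays left out, missed the threshold without agent (0.39, adjusted p = 0.382) and with GCSF (0.64, adjusted p = 0.294), while the LPS fall (-0.75, adjusted p = 0.00439) and the difference of effects (-1.15, adjusted p = 0.031) passed.

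Xpc at 6 hr under LPS at 0 cGy in the sex and treatment set was 6.41 ± 0.83 (5.41 to 8.10, n = 8) against 7.26 ± 0.43 (6.64 to 8.17, n = 10) without agent, a difference of -0.95 ± 0.28 (adjusted p = 0.00463). Its dose slope under LPS was -0.11 ± 0.04 (adjusted p = 0.0429), with 5.63 ± 0.32 at 600 cGy, and it missed the threshold without arrays with high Alb (adjusted p = 0.085). Without agent the Xpc slope was -0.02 ± 0.04 (adjusted p = 0.727), and at 600 cGy the difference was -0.22 ± 0.26 (adjusted p = 0.539), against the called rise of 0.59 in the small treatment set. The LPS slope did not pass the test of difference from no agent (-0.09 ± 0.06, adjusted p = 0.518). At 24 hr LPS at 0 cGy gave 0.54 ± 0.26 and missed the threshold (adjusted p = 0.142), and no dose slope of Xpc was called. At 168 hr after 150 cGy in the small 7 day set the difference was -0.33 ± 0.37 (adjusted p = 0.423), with 1 irradiated mouse at 8.78 and the other 9 between 6.04 and 7.10.

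Polk, the translesion polymerase, was the member that rose at 6 hr in every set that had irradiated mice at this time. In the dose-time set the 0 cGy mice read 6.41, 6.31, 6.53, 6.51 and 6.28 (6.41 ± 0.11), and the 100 cGy mice read 7.31, 7.38, 7.81, 7.80 and 6.22 (7.30 ± 0.65). At 100 cGy 4 of 5 mice were above all 0 cGy mice and 1 was below them, and the difference was 0.90 ± 0.19 (adjusted p = 0.000212). At 800 cGy the mice read 8.07, 8.18, 7.63, 7.57 and 8.17 (7.92 ± 0.30), a difference of 1.52 ± 0.19 (adjusted p = 1.94e-11) and a 2.86-fold higher signal. From 200 cGy up no irradiated mouse overlapped the 0 cGy mice.

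Most of the 6 hr rise of Polk was present at the lowest doses. The differences were 0.90, 1.14, 1.18, 1.19, 1.01, 1.52 and 1.04 in order of dose, each with an SE of 0.19, and the slope over the whole range was 0.07 ± 0.01 per 100 cGy (adjusted p = 2.63e-05). The means from 200 to 600 cGy lay between 7.42 and 7.60 and were closer together than the highest and lowest mouse of any of these groups. At 800 cGy the mouse was higher within each of the 5 title numbers, by 1.06 to 1.89. High Alb was found in 1 mouse at 6 hr, and all 7 calls were kept without it. The order by dose rests on this probe set: the other Polk probe set had a 6 hr slope of 0.01 ± 0.01 (adjusted p = 0.639), and its differences at 600 and 800 cGy, 0.23 and 0.30, missed the threshold.

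At 24 hr Polk was raised less, and after that few doses differed from 0 cGy. At 24 hr the 0 cGy mice read 6.48 ± 0.28 (6.25 to 6.93) and the irradiated groups were higher by 0.34 to 0.74, with 5 of 7 differences called and 600 cGy the highest (0.74 ± 0.19, adjusted p = 0.00121). With high Alb arrays left out, no mouse remained at 300 cGy and the other 4 called differences, then 0.52 to 0.71, missed the threshold. The other probe set called none of the 5 at 24 hr: it gave 0.08, -0.03, 0.06, 0.37 and 0.08 at 200, 300, 450, 600 and 1050 cGy. The 24 hr slope was 0.03 ± 0.01 (adjusted p = 0.0595), and without the 2 mice that read against their label it was 0.04 (adjusted p = 0.0273). At 48 hr no dose was called and the slope was -0.04 ± 0.01 (adjusted p = 0.00462), and at 72 hr only 300 cGy was called (0.54 ± 0.19, adjusted p = 0.0151), where the highest mouse read 7.97, and the difference was 0.21 and missed the threshold with high Alb arrays left out. Those arrays left out, Polk at 100 cGy and 72 hr was higher by 0.63 ± 0.21 (adjusted p = 0.0215, against 0.43 and no call with all), and its 72 hr slope missed the threshold (-0.02, adjusted p = 0.466). At 120 hr 600 cGy was lower by 0.49 (adjusted p = 0.0256), and at 168 hr 300 cGy was lower by 0.48 and 1050 cGy higher by 0.49.

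The slope of Polk at 48, 72 and 120 hr differed from that at 6 hr by -0.11, -0.10 and -0.07, each with an SE of 0.02 and each called, the last of them not without the high Alb arrays (-0.02, adjusted p = 0.782). At 168 hr its slope was again 0.07 ± 0.01 (adjusted p = 4.64e-06), through a dip at 300 cGy to 6.27 and a rise above 600 cGy. Over 0 to 300 cGy, the doses left without high Alb arrays, the 168 hr slope was -0.17. A second, dimmer Polk probe set followed the first less closely (r = 0.40, rho = 0.29 over the 48 group means). It rose at 6 hr at 100, 200, 300, 450 and 1050 cGy, by 0.38 to 0.50, and its slope at 168 hr was -0.08, so the direction of Polk at 168 hr differs between its probe sets. The called differences of Polk turned direction with it at 300 cGy at 24 hr (-0.03), 72 hr (-0.15) and 168 hr (0.29), and at 1050 cGy at 168 hr (-0.56, adjusted p = 0.00106).

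**Figure D4:**
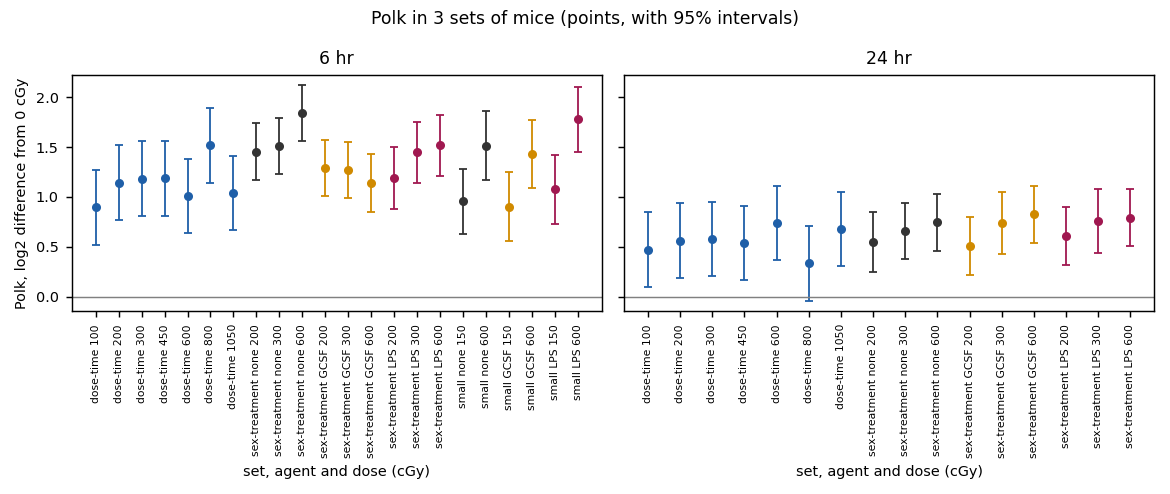
Log2 difference of Polk from the 0 cGy mice of the same set, time and agent, at 6 hr (left) and 24 hr (right). Points are limma estimates and bars their 95% intervals, coloured by set and agent (blue dose-time, black no agent, orange GCSF, red LPS). All 6 hr intervals lie above 0, and the 6 hr differences run from 0.90 to 1.84 against 0.34 to 0.83 at 24 hr.

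Polk also rose at 6 hr in the sex and treatment set, with and without agents. Without agent the 10 unirradiated mice read 5.78 to 6.49 (median 6.36) and the 10 mice at 600 cGy read 7.69 to 8.82 (median 8.16), with a wide gap between them. The difference was 1.84 ± 0.14 (adjusted p = 2.24e-24), a 3.58-fold higher signal, and at 200 and 300 cGy it was 1.45 and 1.51. The slope was 0.28 ± 0.02 per 100 cGy (adjusted p = 6.13e-22). With GCSF the rises were 1.29, 1.27 and 1.14 at 200, 300 and 600 cGy, and with LPS they were 1.19, 1.45 and 1.52. The background shares were 11.6%, 50.6% and 49.7% of genes with GCSF and 1.22%, 20.9% and 28.5% with LPS, so few other genes passed at 200 cGy with LPS. The other Polk probe set rose in 8 of these 9 conditions, by 0.42 to 0.64, and missed the threshold at 200 cGy with LPS (0.32, adjusted p = 0.204).

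GCSF gave Polk a flatter slope at 6 hr, 0.16 ± 0.02 against 0.28 ± 0.02, but the difference of -0.12 ± 0.03 missed the threshold (adjusted p = 0.461). The LPS slope of 0.23 differed from no agent by -0.05 ± 0.03 (adjusted p = 0.576). At 24 hr Polk rose at all 9 irradiated conditions, by 0.55, 0.66 and 0.75 without agent, 0.51, 0.74 and 0.83 with GCSF and 0.61, 0.76 and 0.79 with LPS. The background at 24 hr was 19.2%, 18.9% and 31.4% of genes with GCSF and 6.58%, 6.59% and 15.5% with LPS. Of these 9, the 200 cGy difference with GCSF missed the threshold without arrays with high Alb (adjusted p = 0.152). With the other probe set only the 600 cGy differences of the 9 passed, at 0.38, 0.29 and 0.39, while those at 200 cGy (0.02, 0.02 and 0.30) and 300 cGy (0.21, 0.30 and 0.17) missed the threshold.

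Males had a flatter Polk slope than females at 6 hr, by -0.12 ± 0.03 per 100 cGy (male minus female, adjusted p = 0.000397, averaged over agents). Without agent, females went from 6.38 ± 0.12 at 0 cGy to 8.39 ± 0.28 at 600 cGy and males from 6.18 ± 0.26 to 7.85 ± 0.21. With LPS, females went from 5.89 ± 0.01 (n = 3) to 8.28 ± 0.26 and males from 6.40 ± 0.21 to 7.04 ± 0.38. The sexes overlapped at 0 cGy without agent, where the difference was -0.20 ± 0.20 (adjusted p = 0.419).

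In the small treatment set Polk rose in all 6 irradiated conditions at 6 hr. Without agent the 0 cGy mice read 6.64, 6.68, 6.89, 6.77, 6.57 and 8.17, and the 600 cGy mice 8.41, 7.81, 8.81, 8.62 and 8.68. The mouse at 8.17 is the mouse labelled 0 cGy whose Cdkn1a read 10.47, within the 10.15 to 10.97 of the 600 cGy mice. With it the rises were 0.96 ± 0.17 and 1.51 ± 0.17 at 150 and 600 cGy (adjusted p = 0.000327 and 7.89e-08), and without it they were 1.20 and 1.76. With the other Polk probe set 2 of the 6 conditions passed, 600 cGy with GCSF (0.46) and with LPS (0.51), and the other 4 differences, 0.20 to 0.37, missed the threshold. By the first probe set the rises were 0.90 and 1.43 with GCSF and 1.08 and 1.78 with LPS, and the 600 cGy effect differed from that without agent by -0.08 ± 0.25 for GCSF and 0.26 ± 0.24 for LPS, neither called. LPS at 0 cGy lowered Polk by 0.59 (adjusted p = 0.00639), or by 0.34 without that mouse (difference -0.34, adjusted p = 0.0401), and without arrays with high Alb the difference of -0.29 missed the threshold (adjusted p = 0.178).

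At 168 hr after 150 cGy in the small 7 day set Polk was lower, at 6.21 to 6.70 in 10 mice (6.47 ± 0.15) against 7.05, 6.97 and 6.68 in 3 unirradiated mice (6.90 ± 0.20). The difference was -0.44 ± 0.12 (adjusted p = 0.00529), while the mean of both probe sets gave -0.11, quantile normalisation -0.16 and the other probe set 0.22, none of them called. No marker list followed Polk closely over the 48 dose-time group means, the highest being that of neutrophils at r = 0.37 (rho = 0.43). Neutrophil markers at 6 hr were 9.51 at 0 cGy (mice 9.15 to 9.80) and 11.86 at 1050 cGy (11.57 to 12.19), and their part in the 6 hr rise was not tested. The genes most like Polk were Pvt1 (r = 0.79), a long noncoding RNA gene, Thyn1 (0.78), Casp4 (0.76), Wfdc21 (0.76) and Clec4e (0.74).

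No Gadd45a dose difference passed at 6 hr in any set with all arrays. In the dose-time set the 0 cGy mice read 10.47, 10.83, 10.02, 10.09 and 10.16 (10.31 ± 0.34), and the 800 cGy mice read 10.08, 10.52, 10.74, 10.20 and 10.20 (10.35 ± 0.27). The 7 differences lay between -0.07 and 0.05, each with an SE of 0.27, and no dose passed the test. The 6 hr slope was 0.00 ± 0.02 (adjusted p = 0.961). In the sex and treatment set at 6 hr none of the 9 dose differences passed, and in the small treatment set none of the 6 did. With GCSF in the small treatment set, 1 mouse at 0 cGy read 7.99 against 10.12 to 10.93 in the other 5, and the group's SD was 1.13. With high Alb arrays left out, that mouse was the 1 left at 0 cGy with GCSF, beside 2 at 150 cGy and 1 at 600 cGy. The Gadd45a differences then passed: 2.53 ± 0.48 at 150 cGy (adjusted p = 0.000414, 0.13 with all arrays) and 2.32 ± 0.56 at 600 cGy (adjusted p = 0.00388, 0.50 with all). GCSF at 0 cGy gave -2.69 ± 0.45 (adjusted p = 7.85e-05, -0.43 with all), and its difference of the 600 cGy effect 2.29 ± 0.64 (adjusted p = 0.0195, 0.37 with all). All 4 values rest on that mouse, and the lone mice are assumed to vary like the other groups. In the sex and treatment set without those arrays, the Gadd45a slope at 6 hr was higher in males than females by 0.12 ± 0.04 (adjusted p = 0.019, against 0.10 and no call with all).

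At 24 to 72 hr Gadd45a fell. At 24 hr the 0 cGy mice read 9.93 ± 0.45, and the 300 cGy mice read 7.61, 8.04, 9.16, 8.03 and 8.32 (8.23 ± 0.57), a fall of 1.69 (difference -1.69 ± 0.27, adjusted p = 8.05e-08). Of the 7 doses at 24 hr, 200, 300, 450 and 1050 cGy were called lower. The 800 cGy mice were higher by 0.40, which missed the threshold, and the 24 hr slope of 0.02 was not called (adjusted p = 0.347). All 300 cGy mice at 24 hr carried high Alb, with hepatocyte markers at 13.16 (12.47 to 13.85) against 9.02 at 0 cGy and erythroid markers at 9.67 against 11.92. Leaving out high Alb arrays, no mouse remained at 300 cGy, and the 200 and 450 cGy differences were -0.60 and -0.16 and missed the threshold. The 600 cGy difference was -0.64 (adjusted p = 0.0594), and without the mouse that read against its label it was -0.85 (adjusted p = 0.0129).

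At 48 hr Gadd45a was lower at all 7 doses. The 0 cGy mice read 10.52, 10.15, 10.01, 9.69 and 10.47 (10.17 ± 0.34) and the 200 cGy mice 9.04, 8.59, 8.50, 9.07 and 8.13 (8.67 ± 0.39), a difference of -1.50 ± 0.27 (adjusted p = 9.16e-07). The other falls at 48 hr ran from 0.86 to 1.30 in size, and the slope was -0.07 ± 0.02 (adjusted p = 0.0021). At 48 hr the 100 and 300 cGy differences (-0.83 and -0.78) missed the threshold with high Alb arrays left out. At 72 hr the 6 doses from 200 cGy were lower, by 0.83 to 1.61 in size, and 100 cGy was not (0.10). Erythroid markers fell over the same dose range, from 12.12 to 8.20 at 48 hr and from 12.28 to 7.64 at 72 hr between 0 and 1050 cGy.

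At 120 and 168 hr the direction of Gadd45a depended on dose. At 168 hr the 0 cGy mice read 10.46, 10.45, 10.03, 10.12 and 10.37 (10.29 ± 0.20), and the 300 cGy mice read 11.51, 11.43, 11.64, 11.21 and 11.45 (11.45 ± 0.16). The 800 cGy mice read 7.03, 7.11, 6.88, 7.15 and 7.04 (7.04 ± 0.10), and the 3 groups had no value in common. The difference was 1.16 ± 0.27 at 300 cGy (adjusted p = 6.04e-05) and -3.25 ± 0.27 at 800 cGy (adjusted p = 1.05e-23), a 9.48-fold lower signal. Within all 5 title numbers the 300 cGy mouse was higher, by 0.98 to 1.61, and the 800 cGy mouse lower, with differences of -3.43 to -2.97. The rises at 100 and 200 cGy were 1.01 and 1.04, that at 450 cGy was 0.47 and missed the threshold (adjusted p = 0.107), and the differences at 600 and 1050 cGy were -2.08 and -3.11.

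At 120 hr Gadd45a was also higher at low and lower at high doses. It rose at 100, 200, 300 and 450 cGy by 0.67, 0.95, 1.04 and 0.83 from 9.76 ± 0.26, and at 600, 800 and 1050 cGy the differences were -1.28, -2.32 and -1.75. The crossing from higher to lower lay between 450 cGy (10.59 ± 0.34) and 600 cGy (8.48 ± 0.55). The slopes over all doses were -0.30 ± 0.02 at 120 hr and -0.46 ± 0.02 at 168 hr, and over 0 to 300 cGy, the doses left without high Alb arrays, they were 0.34 and 0.33. The rises at 100 to 300 cGy were kept without those arrays, at 0.67, 0.94 and 1.04 at 120 hr and 1.11, 1.07 and 1.12 at 168 hr.

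Erythroid markers were also highest at low dose and lowest at high dose. At 168 hr they read 12.35 at 0 cGy (12.20 to 12.55), 13.25 at 300 cGy (13.12 to 13.38), 11.27 at 600 cGy (9.23 to 12.39) and 6.73 at 800 cGy (6.45 to 6.99). Hepatocyte markers ran the other way, at 5.74 at 0 cGy (5.05 to 6.27) and 13.66 at 800 cGy (13.10 to 14.07). Over the 48 group means Gadd45a correlated with the erythroid level at r = 0.86 (rho = 0.90) and with the hepatocyte level at r = -0.79 (rho = -0.71). The tissue macrophage level was at r = -0.75 (rho = -0.74) and the monocyte level at r = -0.52 (rho = -0.43). The part of any of these cells in the Gadd45a result was not tested. The genes most like Gadd45a were Smap1 (r = 0.98), Ube2r2 (0.98), Hipk1 (0.97), Nt5c3 (0.97), an enzyme of nucleotide breakdown in maturing red cells, and Rnf10 (0.97).

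**Figure D5:**
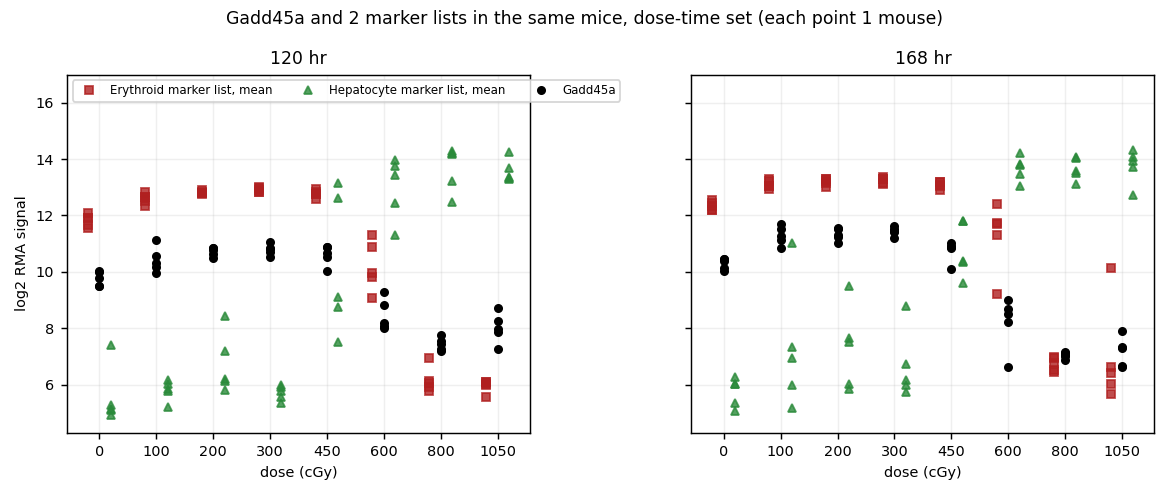
Log2 RMA signal of Gadd45a (black circles) and mean log2 signal of the erythroid (red squares) and hepatocyte (green triangles) marker lists against dose in cGy at 120 hr (left) and 168 hr (right). Each point is 1 mouse, 5 a group. The means of Gadd45a and of the erythroid level are below those at 0 cGy from 600 cGy up, where the hepatocyte level is high in every mouse. At 120 hr mean Gadd45a is 7.44 at 800 cGy and 8.02 at 1050 cGy. At 168 hr the hepatocyte level is also raised at 450 cGy (9.62 to 11.81), where mean Gadd45a is 10.75.

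The other sets gave Gadd45a values at 24 and 168 hr. In the sex and treatment set at 24 hr without agent it was lower at 200 and 300 cGy by 0.80 and 0.83, and at 600 cGy the difference was -0.14 (adjusted p = 0.662). Leaving out high Alb arrays, the first 2 differences were -0.43 and -0.40 and missed the threshold. With GCSF at 24 hr Gadd45a was lower at all 3 doses, by 1.20, 1.18 and 0.92, from 10.77 ± 0.31 (10.44 to 11.33) in 10 unirradiated mice, with a slope of -0.13 ± 0.03 (adjusted p = 0.00167). The difference of that slope from no agent was -0.12 ± 0.05 and missed the threshold (adjusted p = 0.489). With LPS at 24 hr no difference passed with all arrays. High Alb arrays left out, the 600 cGy difference with LPS was -0.61 ± 0.20 (adjusted p = 0.0217, -0.53 with all) and the slope -0.10 ± 0.03 (adjusted p = 0.0171, -0.08 with all).

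At 168 hr after 150 cGy in the small 7 day set Gadd45a read 9.90 to 11.40 in 10 mice (median 10.85) against 9.52, 9.82 and 9.53 in 3 unirradiated mice. The groups did not overlap, and the rise was 1.11 ± 0.22 (adjusted p = 0.000478), a 2.16-fold higher signal. This lay beside the 1.01 to 1.16 at 100 to 300 cGy and 168 hr in the dose-time set. Erythroid markers were 12.88 against 11.86 in the same mice, and all 5 measured rose.

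The members were set beside the rest of their pathways. Of 21 measured nucleotide excision repair genes other than the members (26 were listed), the dose trend at 6 hr was upward for 1 and downward for 7, at 48 hr upward for 1 and downward for 10, and at 168 hr upward for 9 and downward for 7. These are 8, 11 and 16 of 21, near the 34.7%, 47.3% and 82.2% of all genes called for the trend at these times, so the counts are no result about the list. The median slope was -0.02 at 6 hr against 0.004 over all genes. The falls at 6 hr with the smallest p were those of the single-strand binding protein subunits Rpa1 (-0.15), Rpa3 (-0.10) and Rpa2 (-0.07), and of Rad23b (-0.10), the partner that holds Xpc stable. At 600 cGy and 6 hr the difference of Rpa1 was -2.26 ± 0.29 and that of Rad23b was -1.28 ± 0.26, while Xpc differed by -0.08.

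No upward trend was called at 6 hr among translesion genes other than Polk, whose slope was 0.07. By the other Polk probe set that slope was 0.01 and was not called either (adjusted p = 0.639). The list held 12, all measured, and the trend was called upward and downward for 0 and 7 at 6 hr, for 1 and 9 at 48 hr, and for 2 and 9 at 168 hr, with medians of -0.03, -0.06 and -0.07 against 0.004, -0.003 and -0.016 over all genes. Among all genes 34.7%, 47.3% and 82.2% were called at these times. Falling at 6 hr were Usp1 (-0.14), the enzyme that removes ubiquitin from PCNA, Pcna itself (-0.11), Shprh (-0.08) and Rev3l (-0.07), the catalytic subunit of polymerase zeta. Polh, which encodes polymerase eta, differed by 0.18 ± 0.15 at 600 cGy and 6 hr (adjusted p = 0.341). At 168 hr Ube2b (-0.52) and Rad18 (-0.30), the pair that marks PCNA for translesion synthesis, were the pair with the smallest p. Ube2b went the other way at 150 cGy and 168 hr in the small 7 day set, with a difference of 0.80 ± 0.13 (adjusted p = 7.23e-05).

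Of the Gadd45a relatives, Gadd45b and Gadd45g rose with dose at 6 hr. Gadd45b rose by 0.13 ± 0.01 per 100 cGy (adjusted p = 4.69e-14) and Gadd45g by 0.11 ± 0.01 (adjusted p = 1.85e-12), and at 600 cGy they were higher by 1.09 ± 0.20 and 0.98 ± 0.18, while Gadd45a differed by 0.05 ± 0.27. At 168 hr Gadd45g rose (0.15) and Gadd45b fell (-0.04). Of the 4 genes of this list, 2 rose and 1 fell at 6 hr.

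Other p53 targets, a list with 20 of 21 genes measured, trended upward in 15 cases and downward in 2 at 6 hr. The counts were 3 and 3 at 24 hr, 13 and 2 at 48 hr, and 14 and 4 at 168 hr, where 34.7%, 38.7%, 47.3% and 82.2% of all genes were called in time order. Cdkn1a rose by 0.14 per 100 cGy at 6 hr and 0.58 at 168 hr, Fas, the death receptor, by 0.13 at 6 hr, and Plk2 by 0.09. Sesn1 fell by 0.14 at 6 hr (slope -0.14). At 600 cGy and 6 hr the differences were 2.02 ± 0.31 for Cdkn1a, 1.31 ± 0.17 for Fas and 1.01 ± 0.19 for Polk. In the small 7 day set, 0 of 21 excision repair genes rose and 14 fell, and 3 of 12 translesion genes rose and 9 fell, with medians of -0.73 and -1.11 against 0.086 over all genes. In that comparison 67.1% of all genes were called, and 14 of 21 is near that share. All 12 translesion genes were called, in both directions, and nothing is read from a list this short. These lists are described by their counts alone, with no test of the list. The slopes of list genes are given with all arrays only. At 120 and 168 hr they include the mice at 450 cGy and above, all with high Alb.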

How the data were processed

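Peripheral blood RNA of 534 mice was measured on 536 arrays. The deposited table holds log2 values made by the authors with RMA in the affy package, per the submitters' processing notes, and no version is given in the sources used here. Values ran from 2.17 to 14.85, with array medians of 5.61 to 5.93. Raw intensities were not used, and whether all arrays were normalised together is not stated. The number of arrays limits the precision.

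Of 22690 probe sets, 64 controls, 1555 without a symbol and 691 with several symbols were left out, and 20380 gave 12393 genes, each by its brightest probe set on average (4956 genes had several). Levels of different probe sets were not compared. Repeat scans of 2 mice were averaged. Each set was fitted separately in limma 3.58.1 (R 4.3.3, data table package 1.17.8) with a mean per group, giving 192, 178, 41 and 14 residual degrees of freedom. Slopes on dose and differences were contrasts with moderated variances (eBayes), with p-values adjusted by Benjamini-Hochberg over 12393 genes and called under 0.05. In the sex and treatment set they were averaged over the sexes. The fit was tested on simulated data. A marker level is the mean log2 signal of a list's measured genes. Named beside the members are, per member, the 5 genes most correlated with it over dose-time group means, and per list up to 4 genes with the smallest trend p. Motif matches and figures used Python 3.11.15, numpy 2.4.6, pandas 2.3.3, scipy 1.17.1 and matplotlib 3.10.9. The members and lists were chosen with earlier results of these data known. Same-numbered mice were checked for shared deviations, and alternatives changed the probe set, normalisation, filter, prior, block and samples. Alb and the mice reading against their label were picked out after the data were seen.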

Additional observations from a re-analysis of the deposited data

Results flagged for a closer look

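Single mice stood far from the rest of their group in 32 of 412 combinations of gene and group with 4 to 10 mice, where the gap test used passes about 1 in 20 groups by chance. In the dose-time set these were Gadd45a at 6 hr, with 9.87 (200 cGy) and 10.49 (600 cGy), Gadd45a at 48 hr, with 8.05 (600 cGy), and Xpc at 48 hr (7.53 at 100 cGy). At 72 hr they were Ddb2 at 300 cGy (5.23) and 450 cGy (5.41) and Polk at 600 cGy (6.43) and 1050 cGy (6.69). For 300 cGy mice at 120 hr they were Ddb2 (6.60) and Xpc (6.81), and at 168 hr Ddb2 at 100 cGy (6.42), Polk at 450 cGy (6.75) and Gadd45a at 450 cGy (10.09).

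In the sex and treatment set at 6 hr a mouse stood apart for Polk (7.16) and Gadd45a (9.54) in females at 600 cGy with GCSF, and for Ddb2 in males with LPS at 0 cGy (6.75). Without agent the same was seen in females for Ddb2 (6.45) and Polk (6.17) at 0 cGy and Gadd45a at 200 cGy (11.1), and in males for Xpc at 300 cGy (5.34). At 24 hr it was seen with GCSF for Ddb2 in females at 200 cGy (6.16) and males at 0 cGy (6.65), and with LPS in females for Gadd45a at 0 cGy (10.77) and Xpc at 200 cGy (6.87). Without agent at 24 hr it was seen in females for Gadd45a at 200 cGy (8.98) and Polk at 600 cGy (7.2), and in males for Polk at 0 cGy (5.84). In the small treatment set the values were 8.17 for Polk at 0 cGy without agent, 10.04 for Gadd45a at 150 cGy without agent, 7.99 for Gadd45a at 0 cGy with GCSF and 5.29 for Xpc at 600 cGy with LPS. In the small 7 day set it was Xpc at 150 cGy (8.78).

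Dose slopes per 100 cGy differed from those at 6 hr in 15 tests. For Ddb2 the differences were -0.09, -0.07, -0.09, -0.11 and -0.06 at 24, 48, 72, 120 and 168 hr. For Xpc they were -0.05 at 24 hr, 0.08 at 48 hr and -0.07 at 72 hr, and for Polk -0.11 at 48 hr, -0.10 at 72 hr and -0.07 at 120 hr. Gadd45a had -0.07 at 48 hr, -0.10 at 72 hr, -0.30 at 120 hr and -0.46 at 168 hr. With high Alb arrays left out, over 0 to 300 cGy at the last 2 times, the Gadd45a changes turned to 0.34 and 0.33 at 120 and 168 hr. The changes of Xpc at 24 hr (-0.03), Ddb2 at 48 hr (-0.07), Gadd45a at 48 hr (-0.07) and Polk at 120 hr (-0.02) then missed the threshold. The Ddb2 slope under LPS differed from that without agent by 0.15 at 6 hr and 0.24 at 24 hr. At 6 hr the slopes of males minus females differed by 0.12 for Ddb2 and -0.12 for Polk. The Xpc effect of 600 cGy in the small treatment set differed between LPS and no agent by -1.31.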

How the results depend on the processing

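Counts of member calls moved by more than 1.5 times in these cases. Leaving out the 800 cGy mice at 24 hr gave 2 called trends (1 with them) and 1 changed slope (2 with them). With array SD as a covariate 1 member level changed over time at 0 cGy (2 without), and leaving out 1 mouse of every group gave 1 to 2. Male mice alone gave 7 of the trends (12 in both sexes), 20 dose differences (32) and 3 agent differences (6). Female mice alone, 111 against 115 males, did not move these counts as far, with 11 trends, 32 dose differences and 6 agent differences. The other probe sets gave 5 dose differences in the small treatment set (9). Among single results, some turned direction. With high Alb arrays left out, slopes became -0.20 (Xpc, 120 hr), -0.34 (Xpc, 168 hr), -0.17 (Polk, 168 hr), 0.34 (Gadd45a, 120 hr) and 0.33 (Gadd45a, 168 hr), over 0 to 300 cGy because no mouse remained above, and the Gadd45a slope changes from 6 hr turned with them (0.34 and 0.33). The Polk slope at 168 hr was -0.01 with the mean of its probe sets and -0.08 with its other probe set, which also gave 0.00 at 72 hr, 0.22 at 150 cGy and 168 hr, and 0.08 for LPS at 0 cGy in the small treatment set. With that probe set 4 called Polk dose differences turned: at 300 cGy at 24, 72 and 168 hr (-0.03, -0.15 and 0.29) and at 1050 cGy at 168 hr (-0.56). The cause was not tested for these or the counts above. Mice of the same number did not deviate together (mean residual correlation 0.02, 0.04, 0.06 and -0.13 in the 4 sets), and the replicate block gave 18 called trends and 99 dose differences in the dose-time set. The title number as a block gave 17 and 99. Depth has no count here, and the number of arrays and the scale of log2 RMA, which compresses dim signals, limit precision.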
